A study of Homo sapiens with 29 samples.

Results

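WM239A melanoma cells that had spent 7 days on the BRAF inhibitor LGX818 and 7 days off it were put back on it for 7 more days, and the RNA before and after this return of drug is compared here. The members are 6 of the 29 libraries of the series: 3 libraries taken off drug at week 2 and 3 taken back on drug at week 3, chosen by the treatment written in the sample labels, with no measured value used. WM239A is an established human metastatic melanoma line. Both groups, and every other group of the series except the vector control, overexpressed BRAF-V600E. The promoter behind that transgene, and whether the cells were 1 clone or a pool, are not given in the sources used here. The off-drug group had 500 nM LGX818 and then DMSO, the solvent, and the rechallenged group had the same followed by 500 nM LGX818 again. For the first exposure, untreated BRAF-V600E cells and the same cells after their first 7 days in 500 nM LGX818 (week 1) are used, 3 libraries each. Cells were frozen as collected, and per the labels RNA was purified from all samples together after the last time point. Whether replicate libraries stem from separate cultures is not in the labels, and p-values then measure only the spread between these libraries.

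BRAF is a kinase that activates MEK and through it ERK, and the V600E form does so without an upstream signal. ERK switches on early response genes and a set of its own inhibitors, the DUSP phosphatases and the Sprouty and SPRED proteins, so that the RNA of these genes reads out the activity of the pathway. LGX818 (encorafenib) blocks the mutant kinase. Melanoma cells that have adapted to such a drug by raising their BRAF level can be harmed when it is withdrawn, and drug holidays are studied for that reason.

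The 3 off-drug libraries held 26.1, 30.5 and 31.4 M counts (M, mega-counts) and the 3 rechallenged libraries 32.1, 32.3 and 30.6 M. Mitochondrially encoded genes took 12.7% ± 0.583 (SD, n = 3) of the counts off drug and 13.1% ± 0.347 back on it (exact two-sided permutation test, p = 0.4, where the smallest possible p is 0.1). Genes with a count numbered 24200 ± 111 back on drug and 25700 ± 211 off it (exact two-sided permutation test, p = 0.1, adjusted p = 0.2 over 4 library measures). Off-drug library 3 and rechallenged library 1 stood apart from the other 2 of their groups: 116 of 9527 and 258 of 9682 genes of at least 10 CPM (counts per mega-count of the library, scaled by TMM) were 1.5-fold or more away from the mean of the other libraries, against 17 to 51 in the remaining 4. Without both, 5056 genes were higher and 5425 lower, beside 5694 and 5842 with all libraries. Of 7 melanoma markers none was at 0 in either group, and their summed level was 591 to 619 CPM off drug and 407 to 533 back on it.

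The week 3 columns of the deposited table are headed as off drug, whereas the titles and treatment labels of the same libraries give drug at harvest. The labels were taken as right. DUSP6, the ERK phosphatase, stood at 639, 659.8 and 675 CPM in the off-drug libraries and at 116, 101 and 109 CPM in the week 3 libraries. The groups lay far apart, a 6.05-fold difference (log2 -2.60 ± 0.07 SE, adjusted p = 7.37e-24, edgeR quasi-likelihood test with Benjamini-Hochberg adjustment, as for every adjusted p given here). Untreated cells had 421 ± 4.38 CPM (SD, n = 3) and week 1 cells 63.9 ± 2.74, so the week 3 libraries lay beside the drugged group. Exons of DUSP6 overlap a gene on the opposite strand over 40.5% of their length, and how the counting treated strand is not given in the sources used here.

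BRAF itself, the drug's target, stood at 3236, 3169.9 and 3289 CPM off drug and at 853, 910.4 and 1159.8 CPM back on it. The groups did not overlap, a 3.32-fold fall (log2 -1.73 ± 0.08 SE, adjusted p = 5.82e-18). The level came back near that of untreated cells (895 ± 7.17 CPM) and week 1 cells (788 ± 27.1), which had differed by -0.18 on the log2 scale. The table does not separate the transgene from the cells' own BRAF. In these bulk samples, fewer cells of a type and less RNA per cell cannot be told apart.

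Targets and feedback inhibitors of ERK fell almost as a group. Of 19 such genes 16 were lower and 3 higher, with a median log2 change of -1.83, where 28.5% of all 20494 tested genes were lower, 27.8% higher and the median of all was 0.02. These values over all genes are the background for every list below. SPRY4, a Sprouty feedback inhibitor, stood at 824, 884 and 1034 CPM off drug and 95.6, 96.2 and 111 CPM back on it (9.06-fold lower, log2 -3.18 ± 0.09 SE, adjusted p = 1.54e-22). ETV4, an ETS transcription factor switched on by ERK, went from 192, 201 and 177 CPM to 20.3, 17.3 and 19.9 CPM (9.92-fold lower). The phosphatase gene DUSP5 moved most, from 131, 132 and 127 CPM to 8.65, 7.2 and 6.76 CPM (17.3-fold lower, adjusted p = 6.36e-24). In none of these 3 genes did the groups overlap. Of all tested genes 28.5% had every rechallenged library below every off-drug one. Cyclin D1 (CCND1), which drives entry into the cell cycle, fell by less, from 1556, 1612 and 1729.8 CPM to 1070.2, 1035 and 1117 CPM (log2 -0.60). Those that rose were the receptor EPHA2 (69.8 ± 3.08 to 177 ± 7.21 CPM, 2.54-fold), the AP-1 factor FOSL1 (1.38-fold) and MYC (log2 0.74).

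**Figure D1:**
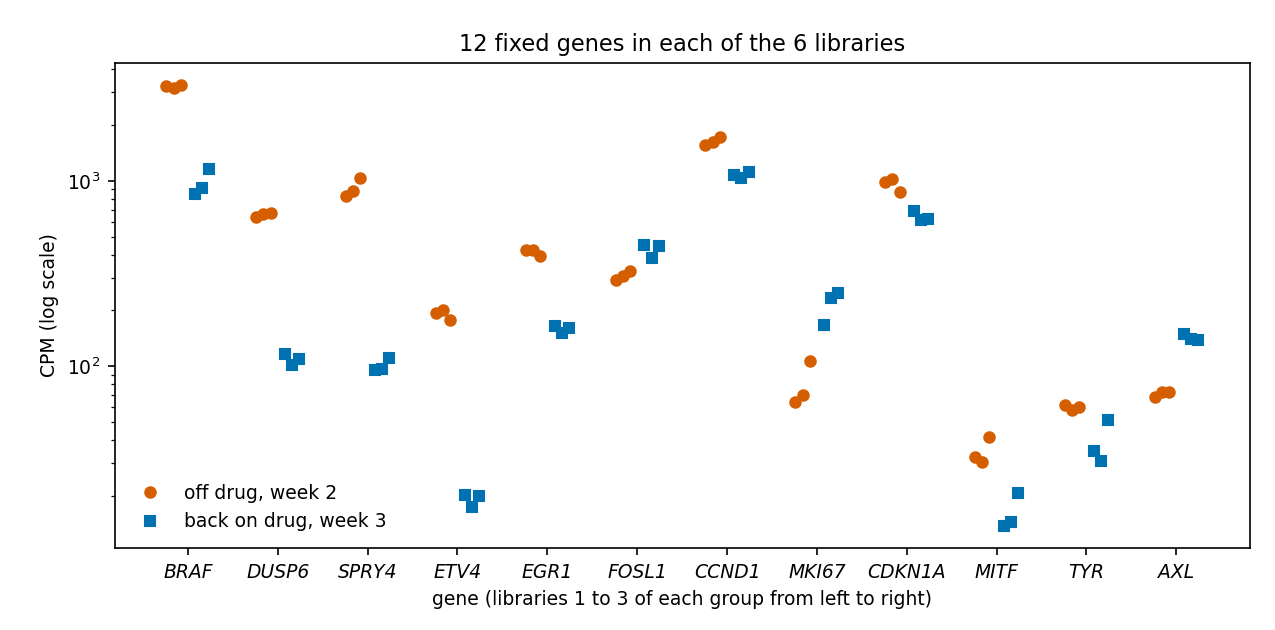
CPM (log scale) of 12 genes followed in every comparison, with the 3 off-drug libraries of week 2 as circles and the 3 rechallenged libraries of week 3 as squares, 1 point a library. In each gene the groups do not overlap: BRAF, DUSP6, SPRY4, ETV4, EGR1, CCND1, CDKN1A, MITF and TYR were lower back on drug, and FOSL1, MKI67 and AXL were higher. Of all tested genes 28.5% lay wholly lower and 27.2% wholly higher in this way.

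Immediate early genes, transcription factors induced within minutes of a growth signal, did not move as one. Of 16 tested, 9 fell and 6 rose (median -0.73). EGR3 was nearly lost, at 114, 118 and 149 CPM off drug and 0.837, 1.16 and 0.985 CPM back on it (127-fold lower, adjusted p = 1.34e-24), and EGR2 fell 19.7-fold, from 111 ± 6.62 to 5.65 ± 0.744 CPM. EGR1 kept more, with 425, 424 and 394 CPM before and 164, 152 and 160.1 CPM after the return of drug. At week 1 the same gene had been at 9.23 ± 0.56 CPM, from 419.6 ± 25.1 untreated, so the second fall was smaller than the first by 4.12 log2 units (SE 0.17, adjusted p = 8.81e-19). FOS, the partner of JUN in AP-1, went the other way, from 26.2, 24.9 and 24.9 CPM to 101, 92.1 and 77.4 CPM (3.56-fold higher), after a first response of -3.19. The nuclear receptor gene NR4A2 fell 4.67-fold (102 ± 4.17 to 21.9 ± 2.18 CPM), where the first exposure had raised it by 0.69.

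Genes of cell division rose when the drug came back. All 20 G2/M genes, which build the spindle and drive mitosis, were higher, by 1.23 (AURKA) to 2.22 (KIF20A) on the log2 scale with a median of 1.56. KIF20A, a kinesin of cytokinesis, stood at 25.1, 24.6 and 30.2 CPM off drug and 132, 122 and 117 CPM back on it (4.65-fold higher, log2 2.22 ± 0.08 SE, adjusted p = 1.34e-20). TOP2A, the topoisomerase that untangles chromosomes, had 84.5, 90.8 and 118 CPM and then 319, 353 and 338 CPM (3.44-fold), and the spindle factor TPX2 62.8, 61.5 and 72.9 CPM and then 237, 243 and 219.5 CPM (3.55-fold). No rechallenged library overlapped an off-drug one in any of the 20 genes. Of all tested genes 27.2% lay wholly higher in this way. MKI67, the Ki-67 antigen of dividing cells, had 64.1, 69.6 and 107 CPM off drug and 167, 235 and 249 CPM back on it (2.7-fold, adjusted p = 7.73e-07). In MKI67 the 2 libraries that stood apart lay towards the other group, off-drug library 3 highest of its 3 and rechallenged library 1 lowest of its 3.

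Of 20 G1/S genes, which copy DNA and prepare for it, 18 rose and none fell (median 0.92). Thymidylate synthase (TYMS), which makes the DNA precursor dTMP, went from 49.8, 49.1 and 59.8 CPM to 172, 160.3 and 142 CPM (2.98-fold). UHRF1, which carries DNA methylation through replication, went from 20.3, 22.1 and 23 CPM to 67.2, 62.2 and 56 CPM (2.83-fold), and the helicase factor CDC45 from 12.2 ± 0.705 to 27.8 ± 1.85 CPM (2.27-fold). CCNE1 (0.15, adjusted p = 0.317) and SLBP (-0.19, adjusted p = 0.0836) did not pass. Among untreated, week 1, off-drug and rechallenged cells, the off-drug mean was the lowest of the 4 in all 20 G2/M genes and in 18 G1/S genes (90%), as it was in 28.3% of all tested genes. KIF20A had 75.8 ± 1.27 CPM untreated and 62.1 ± 1.32 at week 1, and TOP2A 336 ± 20.1 and 195 ± 13.4, so the rechallenged level of KIF20A (124 ± 7.69) was above both and that of TOP2A (337 ± 16.8) close to the untreated one.

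The first 7 days of drug had moved these genes the other way: 19 of the 20 G2/M genes and 17 of the 20 G1/S genes fell then, and none rose (26.7% of all tested genes fell and 27.5% rose). The second response minus the first was above 0 past the threshold in all 20 genes of each list, against 23.3% of all tested genes. For TOP2A the difference was 2.57 ± 0.14 SE (adjusted p = 1.60e-15) and for MKI67 2.49 ± 0.29 (adjusted p = 2.05e-08).

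Because the members of both lists moved together, their promoters are shown for the largest rises that had an entry and for TOP2A. RefSeq promoters on GRCh38.p14, 250 bases before to 50 after the start, were matched for 16 G2/M and 17 G1/S genes. The CHR element (TTTGAA), through which mitotic genes are held down outside their phase, was searched on both strands, as were the E2F-type letters TTCCCGC and TTGGCGC of replication genes. Capitals mark the CHR letters in the first pair and the E2F-type letters in the second, on the gene's strand from 5′ to 3′.
TOP2A (chr17:40417847-40418146, minus strand): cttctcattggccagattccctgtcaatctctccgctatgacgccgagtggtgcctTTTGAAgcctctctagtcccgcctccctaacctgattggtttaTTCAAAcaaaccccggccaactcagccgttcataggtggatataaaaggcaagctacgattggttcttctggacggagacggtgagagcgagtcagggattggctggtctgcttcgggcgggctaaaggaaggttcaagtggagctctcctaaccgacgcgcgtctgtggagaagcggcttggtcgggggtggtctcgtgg
KIF20A (chr5:138178862-138179161, plus strand): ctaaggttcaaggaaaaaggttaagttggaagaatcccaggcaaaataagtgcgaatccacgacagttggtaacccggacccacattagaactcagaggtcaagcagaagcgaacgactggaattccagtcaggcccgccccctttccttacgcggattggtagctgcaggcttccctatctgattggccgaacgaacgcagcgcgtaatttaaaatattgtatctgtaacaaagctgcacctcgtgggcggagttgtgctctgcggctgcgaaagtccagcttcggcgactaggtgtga
UHRF1 (chr19:4909251-4909550, plus strand): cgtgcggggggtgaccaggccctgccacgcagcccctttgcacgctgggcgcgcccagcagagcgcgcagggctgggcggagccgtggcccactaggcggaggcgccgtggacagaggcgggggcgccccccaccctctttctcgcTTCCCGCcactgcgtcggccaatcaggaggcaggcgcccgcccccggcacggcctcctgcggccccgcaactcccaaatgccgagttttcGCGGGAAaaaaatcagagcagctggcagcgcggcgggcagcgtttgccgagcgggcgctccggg
TYMS (chr18:657403-657702, plus strand): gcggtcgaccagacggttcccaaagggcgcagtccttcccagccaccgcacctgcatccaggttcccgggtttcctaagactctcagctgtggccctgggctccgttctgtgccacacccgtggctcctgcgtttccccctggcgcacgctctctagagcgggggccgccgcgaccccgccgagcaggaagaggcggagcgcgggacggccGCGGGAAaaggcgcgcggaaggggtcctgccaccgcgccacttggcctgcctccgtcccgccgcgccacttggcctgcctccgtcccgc

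CHR letters were in 10 of the 16 G2/M promoters (62.5%) and in 0 of the 17 G1/S promoters, against 15.2% of all 35116 promoters of the same length. E2F-type letters were in 12 of the 17 G1/S promoters (70.6%) and in 2 of the 16 G2/M promoters (12.5%), against 9.23% of all. The matches of TOP2A begin 194 and 151 bases before the start, those of UHRF1 104 and 14 bases, and the match of TYMS 39 bases. KIF20A, the G2/M gene with the largest rise, holds no CHR letters in this window. A match is a description of the sequence and not a shown binding site. TYMS exons overlap an opposite-strand gene over 46.6% of their length.

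Brakes on the cell cycle divided. The CDK inhibitor gene CDKN1A fell from 983, 1029 and 873 CPM to 686, 615 and 621 CPM (1.5-fold), where the first exposure had raised it by 1.24. CDKN1C fell 3.38-fold and BTG1 changed by -1.34, while the antiproliferative gene BTG2 rose 5.79-fold (4.44 ± 0.315 to 25.8 ± 0.959 CPM), CDKN2C 3.66-fold and CDKN1B 1.27-fold. The other 3 of 9 did not pass. Of 10 p53 targets 7 rose, by no more than 0.93 (BBC3, which promotes apoptosis), and TP53INP1 and SESN1 rose 1.77-fold and 1.67-fold. GDF15, a secreted stress factor, went against them, from 907, 1054 and 829 CPM to 88.8, 69.6 and 61.8 CPM (12.7-fold lower, adjusted p = 5.82e-20). In the BCL2 family 6 of 14 genes rose and 4 fell. The counts of these 3 lists stand beside 27.8% higher and 28.5% lower among all tested genes. The survival gene BCL2 rose 2.17-fold and the killer gene BMF 2.33-fold, and BCL2A1, a survival gene that MITF controls, fell 4.62-fold (38.6 ± 1.56 to 8.38 ± 1.46 CPM).

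**Figure D2:**
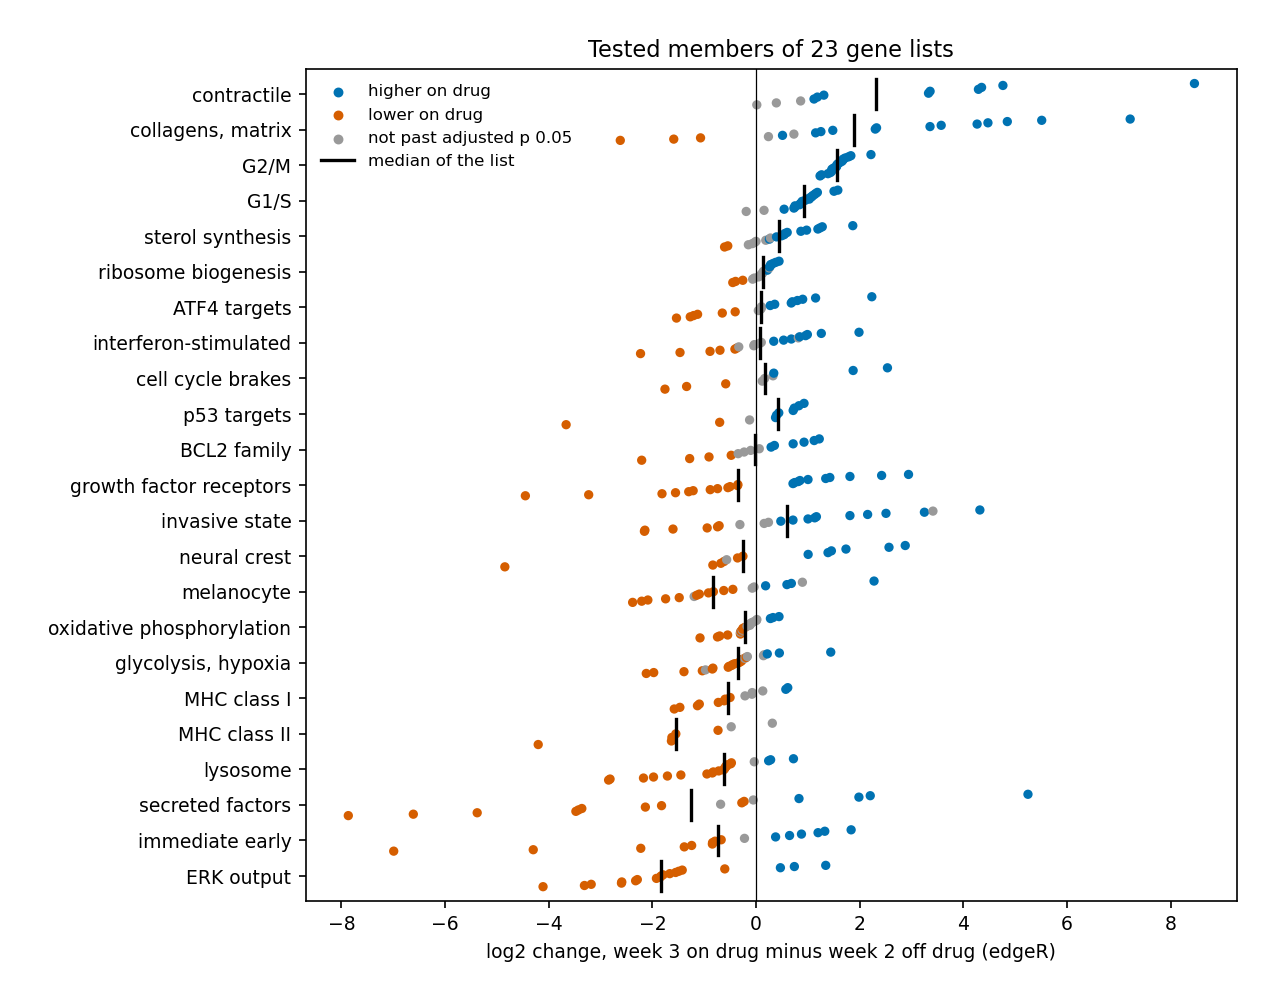
Log2 change on the return of drug (horizontal axis) for each tested member of 23 gene lists, coloured by whether the gene was higher, lower or not past adjusted p 0.05, with each list's median as a bar. The G2/M members all lie between 1.23 and 2.22, and the ERK output median lies at -1.83.

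Pigment and melanocyte genes fell more often than they rose, in 11 of 19 against 4 (median -0.82). MITF, the master regulator of melanocytes, had 32.5, 30.5 and 41.2 CPM off drug and 13.7, 14.4 and 20.7 CPM back on it (2.14-fold lower, adjusted p = 7.45e-09), beside 349 ± 10.7 CPM in untreated cells. The pigment enzyme gene TYR went from 61.4, 57.8 and 60.2 CPM to 34.8, 30.9 and 50.9 CPM, the groups apart by a narrow margin at rechallenged library 3. The melanosome protein gene PMEL fell 4.25-fold (39.8 ± 4.39 to 9.38 ± 2.39 CPM) and RAB38, which carries pigment enzymes, 5.21-fold. Against them GPNMB rose 1.51-fold, TYRP1 by 2.28, DCT by 0.68 and PAX3 by 0.18, and the number that rose was 2 without off-drug library 1 or without rechallenged library 3.

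The neural crest list split 6 and 6 of 13, where 27.8% of all tested genes were higher and 28.5% lower. L1CAM, an adhesion molecule of migrating nerve cells, rose from 109.7, 115 and 103 CPM to 772, 826 and 808 CPM (7.35-fold, adjusted p = 7.37e-24), with AQP1 up 5.91-fold and the crest factor FOXD3 3.33-fold. RXRG, a retinoid receptor, fell from 27.5, 27.7 and 25.5 CPM to 0.992, 0.945 and 0.853 CPM (28.8-fold). Of 20 genes of the invasive, undifferentiated state 10 rose and 6 fell, with a median of 0.59, or 0.36 when PLAU, without a count off drug, is put at its bound. AXL, a receptor kinase of that state, went from 68.4, 72.9 and 72.5 CPM to 149.5, 140.2 and 138 CPM (2-fold, adjusted p = 4.49e-11), and the second response minus the first was -2.99 (SE 0.14, adjusted p = 4.43e-17). In the first exposure AXL had risen from a mean of 3.61 CPM untreated to 57.9 at week 1, below its level back on drug. The matricellular gene CYR61, a target of YAP, rose from 46, 43 and 45.6 CPM to 891, 865 and 927 CPM (19.9-fold), and the collagen crosslinker LOXL2 from 112 ± 4.72 to 1063 ± 56.6 CPM (9.49-fold). PLAUR, the urokinase receptor, fell 4.45-fold (405 ± 50.7 to 91.1 ± 14.8 CPM), after a first response of 1.95.

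Contractile genes, which build the actin fibres of smooth muscle, rose in 9 of 12 cases and fell in none (median 2.32). Among those that rose, MYL9, DES and CNN1 had means of 0, 0.0119 and 0.0348 CPM off drug. They reached only 1.52, 0.449 and 0.808 CPM back on it, so their log2 changes rest on few counts. Tropomyosin 1 (TPM1) went from 66.3, 69.9 and 67.8 CPM to 1425, 1363 and 1372 CPM (20.4-fold, log2 4.35 ± 0.07 SE, adjusted p = 1.37e-27). Caldesmon (CALD1) went from 287, 276 and 349 CPM to 2558, 3224 and 3555 CPM (10.2-fold), and TAGLN from 2.44 ± 0.48 to 24.5 ± 3.48 CPM (10.03-fold). At week 1, 10 of the 12 had risen and none fallen, against 27.5% and 26.7% of all tested genes. The second response minus the first passed in 2, against 48.3% of all tested genes (TPM1 0.04 ± 0.09 SE, adjusted p = 0.791). MYH11, LMOD1 and ACTG2 did not pass, at 0.39, 0.01 and 0.86.

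Collagens and other matrix genes rose in 13 of 18 and fell in 3 (median 1.89). COL1A1, the main chain of type I collagen, had 4.02, 6.04 and 3.24 CPM off drug and 719, 662 and 602 CPM back on it (149-fold, adjusted p = 2.53e-24). Fibrillin 1 (FBN1) rose 45.5-fold (9.52 ± 1.51 to 435 ± 84.3 CPM) and COL5A2 22.2-fold (17.3 ± 4.16 to 385 ± 78 CPM). The 3 that fell were the type VI collagen chains. COL6A3 led them, from 329, 308 and 342 CPM to 49.6, 58.2 and 51.4 CPM (6.14-fold lower), with COL6A1 at -1.59 and COL6A2 at -1.07. COL6A3 had risen by 3.42 in the first exposure, and its second response minus the first was -6.04 (SE 0.22, adjusted p = 5.98e-20). Of 10 fibroblast markers 7 rose with these genes and 2 fell, from a summed 45.3 to 47.7 CPM off drug to 706 to 833 back on it. COL1A1 made most of that sum, DPT had no count in either group and DCN had 2 counts off drug and 28 back on it. The number of these markers that fell was 1 without off-drug library 3, rechallenged library 1 or rechallenged library 2. In those settings THY1, with 24 counts off drug and 4 back on it, did not pass. The part of fibroblasts in the matrix result was not tested.

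**Figure D3:**
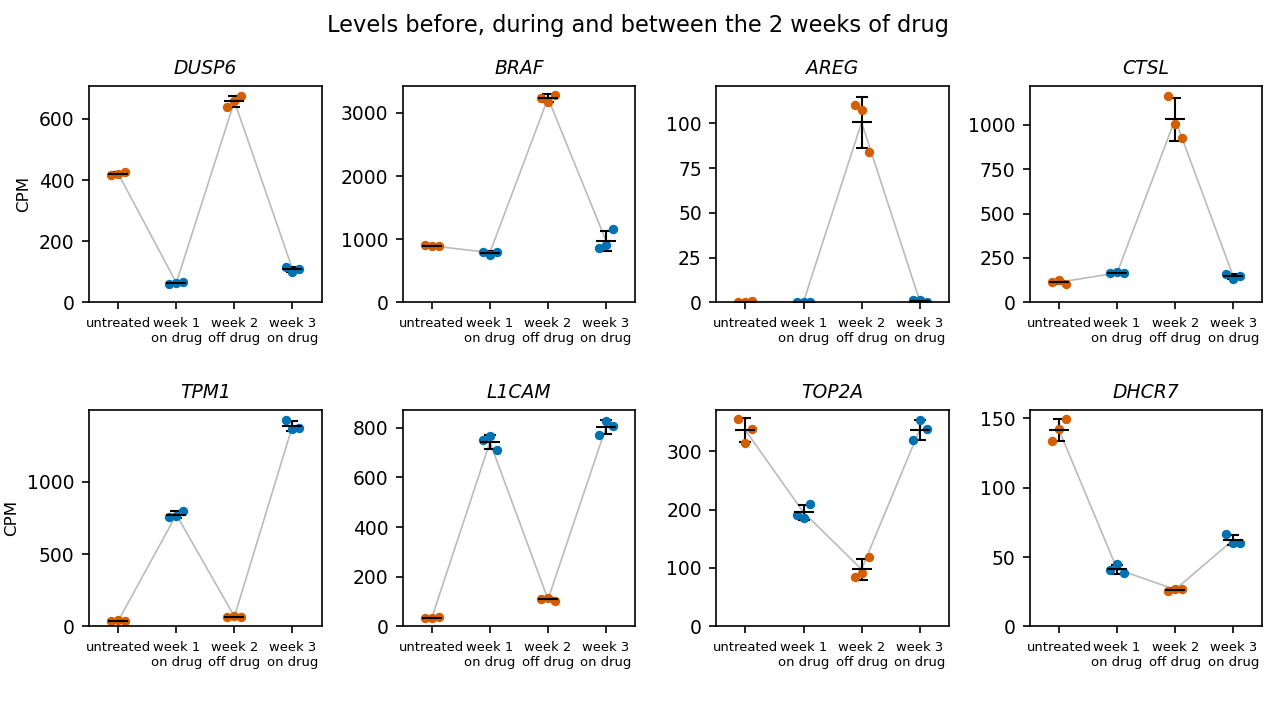
CPM (linear axes from 0) of 8 genes in untreated cells, at week 1 on drug, at week 2 off drug and at week 3 back on drug, 1 point a library with the mean and SD of 3 libraries as bars. DUSP6, BRAF, AREG and CTSL peak off drug, TPM1 and L1CAM are high in both weeks on drug, and TOP2A and DHCR7 are lowest off drug.

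Secreted inflammatory and growth factors fell in 10 of 16 and rose in 4 (median -1.25). AREG, a ligand of the EGF receptor, had 110.1, 107 and 84 CPM off drug and 1.49, 1.13 and 0.427 CPM back on it (97.8-fold lower, log2 -6.61 ± 0.19 SE, adjusted p = 1.84e-22). Interleukin 1 beta (IL1B) went from 23, 19.2 and 18.5 CPM to 0.496, 0.64 and 0.295 CPM (41.6-fold lower) and the cytokine LIF from 812, 851 and 921 CPM to 82, 77.8 and 72.4 CPM (11.1-fold lower). The first exposure had given -0.41 for AREG (adjusted p = 0.437) and -0.86 for IL1B (adjusted p = 0.175), from 0.439 and 0.301 CPM untreated, so both genes were high off drug alone among these 4 groups. IL6 rose instead, from 0.168, 0.179 and 0.174 CPM to 8, 7.11 and 5.12 CPM (37.9-fold, with 14 counts in all off drug), as did CXCL1, VEGFC and CCL2 by 2.20, 1.98 and 0.83. The off-drug mean was the highest of the 4 groups in 9 of the 16 genes (56.2%), against 28.6% of all tested genes.

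Growth factor receptor genes all moved, 10 up and 12 down of 22. FGFR1, a receptor of fibroblast growth factors, fell from 466, 508 and 468 CPM to 54.5, 49.95 and 49.4 CPM (9.37-fold, adjusted p = 1.33e-23). FGFR3 rose from 1.8, 1.29 and 1.57 CPM to 11.8, 13.2 and 10.6 CPM (7.68-fold), so 2 receptors of 1 family moved apart. PDGFRA fell 2.94-fold, where the first exposure had raised it by 1.82.

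Genes that show antigen to T cells fell. Of 7 tested class II genes 5 were lower and none higher (median -1.55): HLA-DMB, which loads peptides, went from 6.83, 5.65 and 5.68 CPM to 0.341, 0.457 and 0.164 CPM (18.4-fold), the invariant chain CD74 fell 3.1-fold and the master activator CIITA 3.08-fold. Class I presentation fell in 8 of 14 and rose in 2. Its activator NLRC5 went from 31, 22.5 and 24.4 CPM to 7.69, 10.2 and 8.14 CPM (2.99-fold lower), HLA-E fell 2.77-fold and the peptide transporter TAP1 2.19-fold. The off-drug mean was the highest of the 4 groups in 11 of the 14 class I genes (78.6%), against 28.6% of all tested genes. HLA genes share sequence, and their counts are uncertain to that extent. The interferon-stimulated list was mixed, with 8 of 20 up and 6 down, against 27.8% and 28.5% of all tested genes. IFI44 rose 2.39-fold and OAS3 1.94-fold. The number of that list that rose was 4 without the libraries that stood apart.

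Cholesterol synthesis genes rose in 12 of 20 and fell in 2 (median 0.44). EBP, a sterol isomerase, went from 11.7, 12 and 10.1 CPM to 49.6, 34.8 and 38.7 CPM (3.64-fold), DHCR7, the last enzyme of the pathway, from 25.7, 27.3 and 26.7 CPM to 66.6, 60.3 and 60.4 CPM (2.35-fold, adjusted p = 3.63e-14), and LSS, which closes the sterol rings, from 35.3 ± 1.71 to 85.4 ± 2.45 CPM (2.42-fold). STARD4, a sterol carrier, fell 1.52-fold and SQLE changed by -0.55. At the first exposure 19 of the 20 genes had fallen, against 26.7% of all tested genes. In all 20 the second response was above the first, against 23.3% of all tested genes. For DHCR7 the difference was 3.01 ± 0.11 SE, on a way from 142 ± 7.91 CPM untreated over 41.4 ± 3.21 at week 1 and 26.5 ± 0.8 off drug to 62.4 ± 3.6 after the return of drug.

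Lysosome genes went down, in 18 of 22 cases against 3 that rose (median -0.62). Cathepsin L (CTSL), a protease, had 1163, 1006 and 923 CPM off drug and 157, 132 and 149 CPM back on it (7.04-fold lower, adjusted p = 1.82e-20). Cathepsin B (CTSB) fell 4.51-fold (2995 ± 264 to 665 ± 46.7 CPM) and the cholesterol carrier NPC2 7.18-fold (866 ± 125 to 121 ± 22.4 CPM). Cathepsin D (CTSD) rose 1.65-fold, LAMP2 by 0.24 and GLB1 by 0.28. The second response was below the first in 19 of the 22 genes, against 25% of all tested genes. The off-drug mean was the highest of the 4 groups in 12 (54.5%), against 28.6% of all tested genes.

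Glycolysis and hypoxia genes fell in 17 of 25 and rose in 3 (median -0.34). Among glucose carriers SLC2A3 fell 4.34-fold (162 ± 9.43 to 37.3 ± 4.34 CPM) and SLC2A1 rose 2.71-fold (97.8 ± 11.9 to 265 ± 14 CPM). NDRG1, a hypoxia gene, fell 3.93-fold and the glycolytic regulator PFKFB4 2.62-fold. Targets of the stress factor ATF4 split, with 8 of 18 up and 6 down: STC2 rose 4.7-fold, the serine synthesis gene PHGDH 2.22-fold and DDIT4 1.86-fold, and TRIB3 fell 2.9-fold. At week 1, 16 of these 18 had risen, against 27.5% of all tested genes. Nuclear genes of oxidative phosphorylation fell in 10 of 23 and rose in 3, with a median of -0.21. NDUFS1 fell 1.67-fold and the coactivator PPARGC1A 2.12-fold. The number of these that fell was 6 without off-drug library 2, and 5 when the 2 groups were fitted alone. Ribosome biogenesis genes rose in 8 of 20 and fell in 3, led by DKC1 at 0.44 and with RRP12 at -0.45, and 5 rose without the libraries that stood apart. Beside each of these lists, 27.8% of all tested genes rose and 28.5% fell.

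The 8 largest rises were led by NPPB. This gene of a natriuretic peptide had 0.0419, 0.107 and 0.104 CPM off drug and 22, 14 and 15.9 CPM back on it (log2 7.57 ± 0.33 SE). The fatty acid carrier CD36 went from 0.545, 0.25 and 0.731 CPM to 59, 75 and 98.3 CPM (151-fold) and LYPD6B from 0.0838, 0.0715 and 0.0697 CPM to 12.8, 10.6 and 10.7 CPM (144-fold). Off drug these 3 genes had no more than 41 counts over the 3 libraries, so their folds rest on few counts. COL1A1, EDIL3 (70.7-fold), PRELP (62.6-fold) and OLFML2A (54.5-fold, 9.75 ± 0.577 to 532 ± 96.8 CPM) were also among the 8. All 8 had risen at week 1 too, beside 27.5% of all tested genes. OLFML2A then reached 1242 ± 79.1 CPM.

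Of the 8 largest falls, that of CD52 is described first. CD52, a surface glycoprotein of lymphocytes, went from 70.2, 70.5 and 53.9 CPM off drug to 0.31, 0.122 and 0.0328 CPM (402-fold lower, adjusted p = 2.06e-21), and the chemokine CCL3 from 56, 61.6 and 41.5 CPM to 0.217, 0.366 and 0.525 CPM (143-fold). LCE1F and KPRP, genes of cornified skin, fell 150.2-fold and 196-fold, the keratin gene KRT3 144-fold and the long noncoding RNA LINC00440 196-fold (70.6 ± 5.39 to 0.352 ± 0.279 CPM). TNP1, a transition protein of sperm, had 514 counts off drug and none back on it, a log2 change of -7.67 or below at a floor of 3 counts over the group. OBP2A had 446 counts and then 3, a ratio of 0.00567 (95% counting interval 0.00117 to 0.0167, counting error only). Untreated cells held 0.756 CPM of CD52, 0.119 of CCL3, 0.036 of LCE1F and 0.036 of LINC00440, so these genes were high off drug and near 0 before any drug. CCL3 and LCE1F have near-identical copies, and 74.6% of the CCL3 exons overlap an opposite-strand gene, so their counts are uncertain.

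Marker sums of immune, endothelial and keratinocyte cells were lower back on drug, unlike the fibroblast sum. Among 10 immune markers MS4A1, CD3E and HBB had no count off drug, and the sum of the 10 went from 5.15 to 5.61 CPM to 0.788 to 0.868. Of 8 endothelial markers CDH5 and CLDN5 had no count in either group, and the sum went from 114 to 136 CPM to 37.7 to 45.1. TIE1 made most of the off-drug sum (80.8 CPM off drug, 13.2 back on it) and EGFL7 most of the later one (26.2 and 25.4 CPM). Of 10 keratinocyte and epithelial markers CDH1, EPCAM and DSG3 had no count off drug, and the sum went from 112 to 144 CPM to 71.4 to 99.4, mostly KRT18. Of the 7 tested members of that list 3 were lower and 2 higher, KRT14 (from 0.4 to 3.22 CPM) and TP63 (log2 1.20), with a median log2 change of 0.26. TP63 did not pass without off-drug library 1 (1.13), off-drug library 2 (0.87) or rechallenged library 3 (1.10). The part of such cells in the falls was not tested.

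Over all genes, 5694 were higher and 5842 lower back on drug (56.3% in all), 2302 and 2807 of them by at least 2-fold (11.2% and 13.7% of those tested) and 819 and 1493 by at least 4-fold. The libraries of the groups did not overlap in 5583 genes higher (27.2%) and 5846 lower (28.5%). The first exposure, which shares no library with the second, raised 5635 genes and lowered 5463 (54.2% in all). Of the genes that rose in the second exposure 43.1% had risen in the first (43.5% of those that rose then), beside 27.5% of all tested genes, and of those that fell 39.3% had fallen (42% of those that fell then), beside 26.7%. A further 1334 genes fell first and rose later, 23.4% of those that rose later, beside 26.7% of all tested genes that fell first. Another 1344 rose first and fell later, 23% of those that fell later, beside 27.5% of all tested genes that rose first. Across the 20494 genes the 2 log2 changes had a Pearson correlation of 0.392 and a Spearman correlation of 0.259, a description over genes that are not independent.

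The 2 responses themselves differed in 9898 genes (48.3%), above in 4782 and below in 5116, 2342 and 2844 of them by at least 2-fold (11.4% and 13.9% of those tested). TRIM54, a muscle ring finger protein, shows the second kind: no count in untreated cells, 2 ± 0.108 CPM at week 1, 35.7, 37.3 and 26.7 CPM in the off-drug libraries and 1.43, 1.89 and 0.919 CPM back on drug. COL6A3, CMKLR1 and CYP4F3 likewise had their lowest mean untreated and their highest off drug, with CMKLR1 at 0 CPM untreated, 0.392 at week 1, 28 off drug and 1.59 back on it. FABP7, a fatty acid binding protein of glia and melanoma, shows the first kind: 679 ± 33.3 CPM untreated, 4.76 ± 0.283 at week 1, 11.1 ± 1.36 off drug and 3.87 ± 0.26 back on it, a second response of -1.52 after a first of -7.15 on the log2 scale. GPRC5B, an orphan receptor, went likewise from 189 CPM over 2.06 and 5.94 to 3.71.

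**Figure D4:**
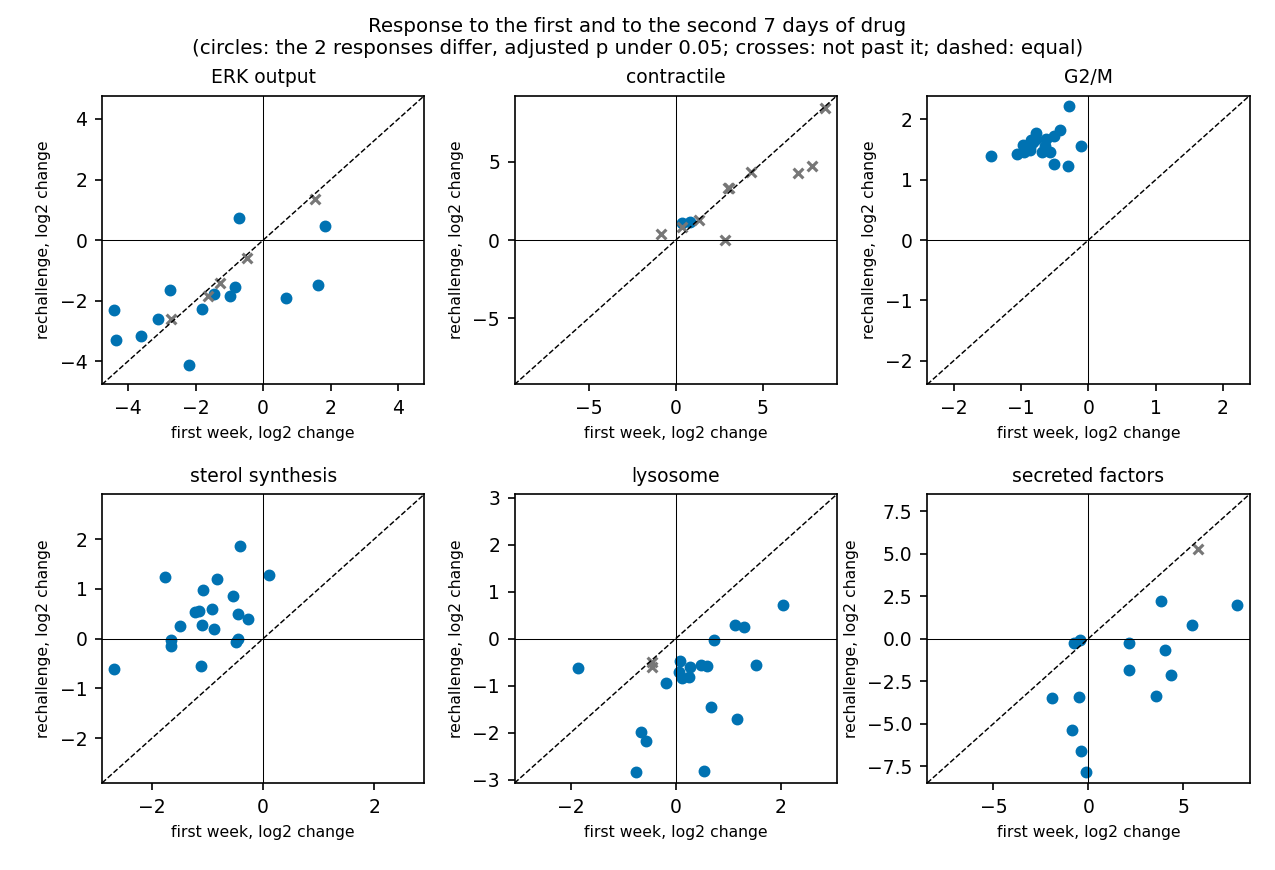
Log2 change in the first exposure (week 1 minus untreated, horizontal axis) and in the second (week 3 minus week 2, vertical axis) for the tested members of 6 lists, with circles where the responses differ at adjusted p under 0.05, crosses where they did not pass, and a dashed line of equal response. All 20 G2/M and all 20 cholesterol synthesis genes are circles above the line, 19 lysosome genes are circles below it, and 2 of the 12 contractile genes are circles. Of all tested genes the responses differed in 48.3%, with 23.3% above and 25% below.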

How the data were processed

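RNA of 29 libraries in 10 groups was counted per gene, and the 6 libraries of week 2 off drug and week 3 back on drug are the subject here. The values are raw read counts per gene for 60675 Ensembl genes, deposited by the authors. Per the submitters' processing notes, the tools were HISAT2 2.0.3, HTSeq 0.6.1, Trimmomatic 0.32 and SAMtools 0.1.18, and the genome GRCh38. The annotation release and the strand setting are not given in the sources used here. Table columns were matched to samples through the week, the arm and the replicate in their names. Gene positions and overlaps came from GENCODE 29 (20326 of the tested genes matched).

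Genes were tested with edgeR 4.0.16 (R 4.3.3). Libraries were scaled by TMM, genes with low counts were removed by filterByExpr, all 10 groups entered a single quasi-likelihood model, and p-values of the 20494 genes kept were adjusted by Benjamini-Hochberg with a threshold of 0.05. The second response minus the first is (week 3 on drug minus week 2 off drug) minus (week 1 minus untreated). Values are CPM with TMM factors. A group at 0 counts was given a floor of 3 counts, and 1 to 3 counts are reported as ratios (95% counting interval). Lists are described by counts and medians, without a set test. On simulated counts of the same comparison a 1.5-fold change was found in 47 of 67 genes (70.1%), a 2-fold change in 66 of 67 (98.5%) and a 4-fold change in 66 of 66. False calls numbered 5 (2.72% of calls, 19251 genes tested). Apart from the few changed genes, none of which was low in CPM, each simulated gene had the same mean in all groups. In the data 56.3% of genes were called, so these shares may not carry over.

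The comparison, the lists and the named-gene rule were chosen with earlier results of these data known. The rule names 12 fixed genes, the 8 largest rises and 8 largest falls that reach a group mean of 5 CPM and whose groups do not overlap, the 6 largest differences between the responses each way, and in each list up to 3 members in its main direction and 1 against it. Clone names and pseudogenes were left out. A few genes picked this way are left unreported. MYC, BTG1, CCNE1, SLBP, TYRP1, DCT, PAX3, MYH11, LMOD1, ACTG2, MYL9, DES, CNN1, COL6A1, COL6A2, CXCL1, VEGFC, CCL2, SQLE, LAMP2, GLB1, AURKA, PLAU, THY1, KRT14 and TP63 lie outside it and were named after their values were seen. Promoter sequences are from RefSeq (GRCh38.p14). As alternatives, RLE factors, DESeq2 1.42.0, a fit of the compared groups alone, a replicate term, testing without the count filter, a 2-fold limit and the removal of each library were tried. Leaving out together off-drug library 3 and rechallenged library 1 was chosen after seeing the data. Figures were drawn with matplotlib 3.10.9.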

Additional observations from a re-analysis of the deposited data

Results flagged for a closer look

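The results below are set apart because the response to the second 7 days of drug, week 3 against week 2, differed past adjusted p 0.05 (edgeR) from the response to the first 7 days, week 1 against untreated. The values are differences of log2 changes, second minus first. In all, 4782 genes lay above 0 and 5116 below it.

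Among the 12 fixed genes, EGR1 (4.12), ETV4 (1.04) and SPRY4 (0.43) fell less the second time. DUSP6 (0.12, adjusted p = 0.282) and CCND1 (-0.13, adjusted p = 0.213) did not pass. The wider lists were mixed. Of 19 ERK targets and feedback inhibitors, 6 lay above their first response and 8 below it (median -0.20). Of 16 immediate early genes, EGR1 among them, 4 lay above and 10 below (median -0.84). Of all tested genes 23.3% lay above and 25% below. Among the other fixed genes, the pigment genes MITF (3.84) and TYR (0.78) and the division marker MKI67 (2.49) lay above their first response. BRAF (-1.55), FOSL1 (-1.37), AXL (-2.99) and CDKN1A (-1.82) lay below it. These are differences between changes and do not rank the level of week 3 against that of week 1. In CPM at week 1 and back on drug, BRAF had 788 and 974, FOSL1 331 and 426, and AXL 57.9 and 143. CDKN1A had 743 and 641, MITF 11.4 and 16.3, TYR 130 and 38.9, and MKI67 122 and 217.

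Of the genes with the largest positive differences, FABP7 (5.63), GPRC5B (5.85), EWSAT1 (6.14), SLC5A4 (6.84) and NHEG1 (5.31) fell in both exposures, less the second time. POSTN (5.22), the matrix protein periostin, had a first response of -2.89 and a second of 2.32, from 23 counts off drug to 138 back on it. SLC5A4 and NHEG1 had 1 count each at week 1 and 3 and 4 back on drug, so their fitted values depend on the prior count. Without rechallenged library 3 the difference was 1.88 for NHEG1 (adjusted p = 0.843) and 5.97 for SLC5A4 (adjusted p = 0.101).

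Of the genes with the largest negative differences, TRIM54 (-13.39), LINC00536 (-11.14), AKR1C1 (-10.98), CMKLR1 (-10.62) and CYP4F3 (-10.44) rose in the first exposure and fell in the second. SPANXN1 (-9.80) fell 54.8-fold in the second, after a first change of 4.03 that did not pass (adjusted p = 0.0736). TRIM54, LINC00536, CMKLR1 and SPANXN1 had no count in untreated cells and CYP4F3 had 2, so the fitted first response of these depends on the prior count. AKR1C1 and SPANXN1 have near-identical copies among which reads may be divided.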

How the results depend on the processing

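Both counts of genes that differed back on drug, and both counts of genes whose second response differed from the first, stayed within 1.5 times of the reported value under every alternative except the 2-fold limit, which leaves 2302 higher, 2807 lower, 2342 above and 2844 below the first response. The lowest counts came from fitting the compared groups alone, 4641 higher and 4809 lower, with 17425 genes tested. Leaving out 1 library gave 5192 to 5421 higher and 5188 to 5650 lower, and 4432 to 4951 above and 4584 to 5212 below the first response. DESeq2 gave 5132 higher and 6070 lower, RLE factors 5333 and 6177. Among the called genes 45.8% to 50.8% were higher, against 49.4% as reported. Of the single genes, 7 lost their call for the rechallenge in at least 1 setting (23 gene and setting pairs in all) and none turned its direction, and NHEG1 and SLC5A4 lost theirs for the difference of responses without rechallenged library 3 (adjusted p = 0.843 and 0.101). CCND1 gained that call with DESeq2 (adjusted p = 0.0366). The neural crest median of -0.25 was 0.38 with the compared groups alone; the cause was not tested.

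Replicate numbers are shared between the groups, but same-numbered libraries did not deviate together (correlations 0.0629, -0.0547 and 0.112), and only rechallenged library 3 correlated best with its own number, so the numbers were not taken as pairs. With a replicate block, fitted to the compared groups alone, 5028 genes were higher and 5204 lower, and 4372 and 5117 lay above and below the first response. Genes changed 1.5-fold were recovered less often than larger changes on simulated counts, so small changes at this number of libraries may be missed.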
